A study of Mus musculus with 9 samples.

Results

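The regions described here are 5-hydroxymethylcytosine (5hmC) regions that the authors listed in MLL-AF9 cells, that share no base with any region of the control list, and that lie at most 1000 bp from one. They are called flanking regions below. On the 19 autosomes, 19898 of 166014 MLL-AF9 regions met this rule, which is 12.0% of them and 16.3% of the 122411 autosomal regions found only in the MLL-AF9 list. The gap is the number of bases between the 2 regions, and the nearest control region of a flanking region is called the flanked control region. There were 16503 of these among 51145 autosomal control regions. A further 1525 control regions had a flanking region within 1000 bp that was nearer to another control region, and these are not counted as flanked. The flanking regions were chosen by the deposited positions of the 2 lists, that is by overlap and gap, so both are given as a description only. With 1 library per group, no difference between MLL-AF9 and control cells could be tested.

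Both groups were mouse bone marrow mononuclear cells of strain B6.SJL, which carries CD45.1. The MLL-AF9 group had received the retroviruses MSCVneo-MLL-AF9 and MSCVpuro, and the control group MSCVneo and MSCVpuro, so that cells of both groups carried the empty MSCVpuro virus. The labels give no age, no time after transduction and no number of pooled animals. DNA enriched for 5hmC was sequenced from 1 library per group, and polyA RNA from 3 libraries per group. For the enrichment, the labels give an antibody against 5-methylcytidine, and the text on the series' design gives chemical labelling that is selective for 5hmC. Read totals of the 5hmC libraries are unknown, because only region lists were analysed.

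5hmC arises when TET dioxygenases oxidise 5-methylcytosine, the common methyl mark of mammalian DNA. It is an intermediate on the way to removal of the methyl mark, and it is enriched at enhancers, along bodies of transcribed genes and at the borders of CpG-rich promoters. MLL-AF9 is a fusion of MLL and AF9 that drives acute leukemia through genes such as Hoxa9 and Meis1. In the authors' deposited table of pooled RNA values, Hoxa9 stood at 65.9 FPKM (fragments per length and depth) in MLL-AF9 and 0.876 in control cells, and Meis1 at 42.6 and 1.68. Of the TET enzymes in the authors' deposited table, Tet1 stood at 1.76 against 0.382 FPKM (q = 0.00989), Tet2 at 18.7 against 6.56 (q = 0.0350) and Tet3 at 17.5 against 9.31 (q = 0.306). The leukocyte marker Ptprc, at 142 and 257 FPKM (q = 0.451), was present in both groups. So were the myeloid markers Itgam, at 227 and 399 (q = 0.180 in the authors' deposited table), Mpo, at 627 and 927 (q = 0.772), Elane, at 1488 and 904 (q = 0.597), and Csf1r, at 82.4 and 81.3 (q = 0.989). Of the progenitor markers in the authors' deposited table, Cd34 stood at 78.2 against 19.3 FPKM (q = 1.71e-07) and Kit at 12.9 against 14.3 (q = 0.876). Markers of other marrow cells were low in MLL-AF9 cells in the authors' deposited table: Cd79a of B cells stood at 2.97 FPKM against 210, Cd3e and Cd3d of T cells at 0.464 and 0.660 against 9.40 and 16.7, and Klf1 of red cells at 0.884 against 9.19. The part of this difference in cell types in the 5hmC lists was not tested. The files give no gene positions in the build of the region lists (mm9), so regions are identified by position and not by gene.

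Flanking regions were of middling width and score within the MLL-AF9 list. Their width ran from 123 to 2778 bp with a median of 436 bp and quartiles of 341 and 573 bp, beside a median of 442 bp over all autosomal MLL-AF9 regions, and together they covered 9.77 Mb. The score that the authors gave each region, whose meaning is not stated, ran from 63 to 2048 with a median of 210 and quartiles of 145 and 280. It is used below only within a list. The median flanking region stood at percentile 47.9 of the MLL-AF9 list by score. A width above 1000 bp was reached by 737 flanking regions (3.70%), compared with 14.2% of the 43603 MLL-AF9 regions that overlapped a control region. The top decile of scores, from 455 upward, held 1713 flanking regions (8.61%) and 20.3% of the overlapping regions.

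Among MLL-AF9-only regions, medians of width and score declined slightly with distance from control, and large regions became less frequent. Median width was 436 bp for flanking regions, 421 bp for the 52107 regions further than that and up to 10000 bp away and 393 bp for the 50406 regions with a larger gap. Median scores were 210, 206 and 194 in the same order. Widths above 1000 bp made up 3.70%, 2.79% and 1.58% of the 3 classes, and scores in the top decile of the MLL-AF9 list 8.61%, 7.01% and 4.74%. Another MLL-AF9 region lay within 1000 bp of 91.2%, 49.98% and 34.6% of the regions in the 3 classes, in the same order. For flanking regions this neighbour can be the one that overlaps the control region. Their share was 98.2% where an MLL-AF9 region overlapped the flanked control region and 42.8% where none did. The overlapping MLL-AF9 regions stood apart from these 3 classes, with a median width of 575 bp and a median score of 262. A single shared base counts as overlap, so a wider region can enter that class more easily. The part of this in the larger width and score of overlapping regions was not tested. Score followed width, with a Spearman correlation of 0.69 over the 19898 flanking regions and of 0.72 over all autosomal MLL-AF9 regions. These regions share a library and often a neighbourhood and are not independent.

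**Figure D1:**
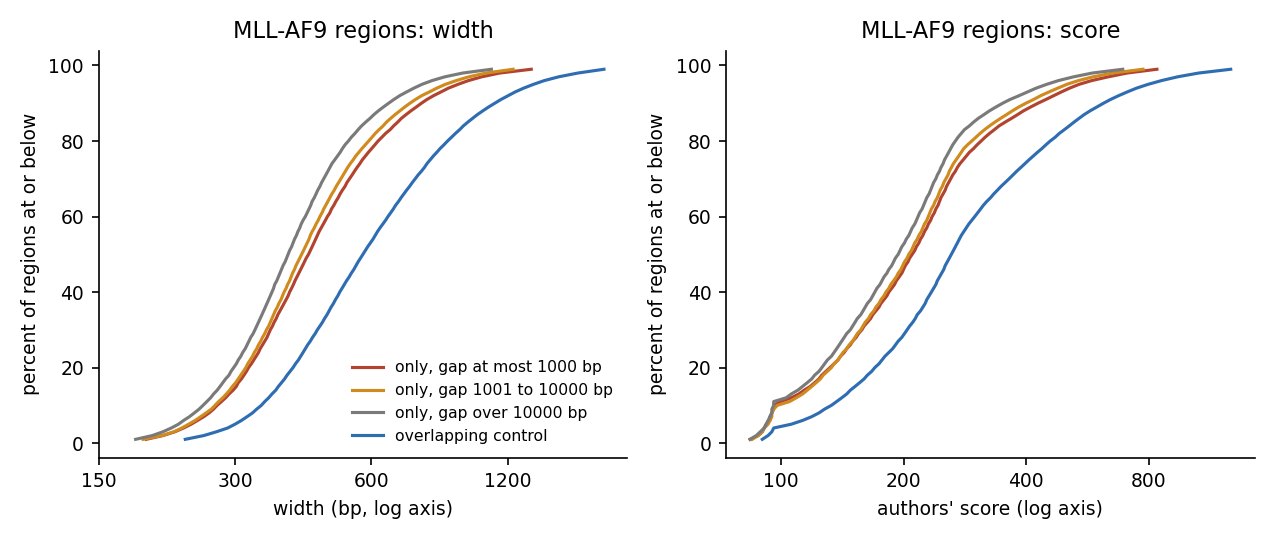
Cumulative distributions of width in bp (left) and of the authors' score (right), both on log axes, for 4 classes of autosomal MLL-AF9 regions from percentile 1 to 99; "only" means without a shared base with a control region. The curve of the 19898 flanking regions (red) lies beside that of regions up to 10000 bp away, and the curve of overlapping regions (blue) lies to the right, with medians of 575 bp and 262.

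At like width the classes had like scores, except among the widest. In the lowest width quartile of the MLL-AF9 list, up to 345 bp, the median score was 133 for flanking regions, 134 for regions more than 10000 bp away and 139 for overlapping regions. In the second quartile, up to 442 bp, it was 197, 197 and 196, and in the third, up to 601 bp, it was 253, 249 and 257. In the widest quartile, which has no upper limit of width, it was 378, 365 and 415. The widest quartile held 4373 of the flanking regions and 20242 of the overlapping ones. Of these, 737 and 6180 were wider than 1000 bp, so the classes were not of like width within it.

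The number of MLL-AF9-only regions rose over the first 100 bp from control regions and fell beyond that, without a step at the limit of 1000 bp. The median gap of flanking regions was 414 bp, with quartiles of 189 and 690 bp, and 11576 (58.2%) had a gap of at most 500 bp. Per 100 bp of gap there were 2481 regions up to 100 bp, 2799 from 101 to 200 bp, 1549 from 901 to 1000 bp and 1038 from 1901 to 2000 bp. The second count was thus 1.81 times that at the limit. In steps of 20 bp, the count rose from 374 at gaps up to 20 bp to 612 at 81 to 100 bp and fell to 407 at 281 to 300 bp. Gaps between consecutive regions of one list were as common or more common at the shortest distances: there were 2514 consecutive MLL-AF9 pairs and 635 consecutive control pairs at up to 20 bp, and 2089 and 467 at 81 to 100 bp. Of the flanking regions, 15 touched their control region with a gap of 0.

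Width and score did not track the gap. Over the 100 bp steps up to 1000 bp, the median width of flanking regions lay between 428 and 442 bp and the median score between 205 and 215. The Spearman correlation of gap with score was 0.007 and that of gap with width 0.005, over 19898 regions. Just inside the limit, the 750 regions with gaps up to 50 bp shorter had a median width of 434 bp and a median score of 208. Just outside it, the 733 regions with gaps up to 50 bp longer had medians of 420 bp and 203.

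**Figure D2:**
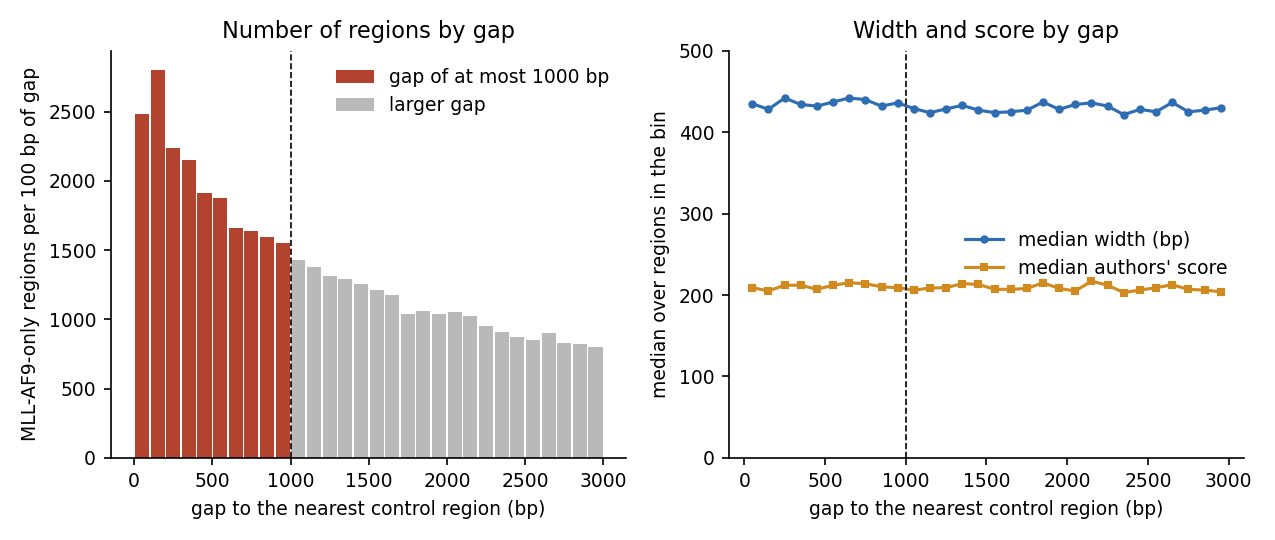
Left, number of autosomal MLL-AF9-only regions per 100 bp of gap to the nearest control region, in bp, with those at most 1000 bp away in red and the limit as a dashed line; right, median width in bp and median authors' score in the same bins. Counts fall from 2799 at 101 to 200 bp to 1549 at 901 to 1000 bp, while both medians stay level.

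Counted by bases instead of regions, coverage by the MLL-AF9 list dropped steeply at the edge of control regions and declined slowly beyond the first 200 bp. Inside control regions 70.0% of bases lay in an MLL-AF9 region. In the first 100 bp outside 31.1% did, in the next 100 bp 18.0%, and from 901 to 1000 bp 13.0%. In the first 100 bp, overlapping regions that ran past the control edge covered 29.9% of bases and MLL-AF9-only regions 1.15%. From 301 to 400 bp the shares were 5.72% for overlapping and 10.2% for MLL-AF9-only regions. MLL-AF9-only coverage was highest, at 12.9%, from 701 to 800 bp, and then declined to 10.7% at 1901 to 2000 bp and 7.44% at 4901 to 5000 bp. Bases near a control edge that overlapping regions occupy cannot belong to a flanking region, so the low values of the first steps follow in part from the rule.

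**Figure D3:**
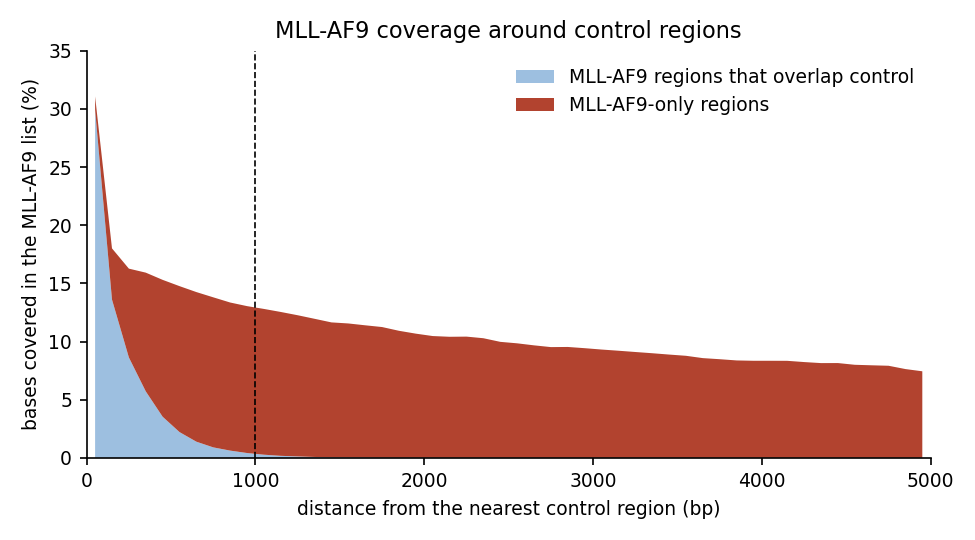
Percent of bases covered by the MLL-AF9 list at each distance from the nearest autosomal control region, in bp, stacked for MLL-AF9 regions that overlap control (blue) and MLL-AF9-only regions (red); the dashed line marks 1000 bp. The blue area is 29.9% at 1 to 100 bp and 0.413% at 901 to 1000 bp, and the red area peaks at 12.9%.

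Flanking regions lay on both sides of control regions in like numbers. Along the chromosome, 9977 followed their control region (50.1%, 95% Wilson interval 49.4 to 50.8, which covers counting error only) and 9921 preceded it. The 2 sides had the same median width of 436 bp and median scores of 208 and 212. The lists carry no strand, since every row is marked plus, so the sides are those of the reference and not of transcription. Among the 19 autosomes the share on the higher side ran from 47.2% on chromosome 14 to 52.0% on chromosome 17.

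Every autosome held flanking regions, with some difference in their share. The number of flanking regions ran from 623 on chromosome 18 to 1572 on chromosome 2, and their share of a chromosome's MLL-AF9-only regions ran from 14.2% on chromosome 9 to 19.9% on chromosome 17. Chromosome 17 also had the most control regions per 100 MLL-AF9-only regions, 50.7. Across the 19 chromosomes the 2 measures had a Spearman correlation of 0.81, given as a description because both share the count of MLL-AF9-only regions. Median width on single chromosomes lay between 422 and 450 bp and median score between 199.5 and 220.0.

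Control regions of every size were flanked about equally often. The 16503 flanked control regions had a median width of 577 bp and a median score of 265, compared with 568 bp and 263 for the 34642 that were not flanked. By deciles of control score, the flanked share ran from 31.3% in the highest decile to 33.8% in the next below it, and by deciles of control width from 29.5% in the narrowest to 34.0% in the sixth of 10. Overlap with the MLL-AF9 list, in contrast, went from 76.4% in the lowest to 90.9% in the highest decile of score, and from 71.7% to 92.8% by width. A single shared base counts as overlap, so wider control regions can meet it more easily. The part of this in the rise was not tested. The control list as a whole had 32.3% of its autosomal regions flanked.

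**Figure D4:**
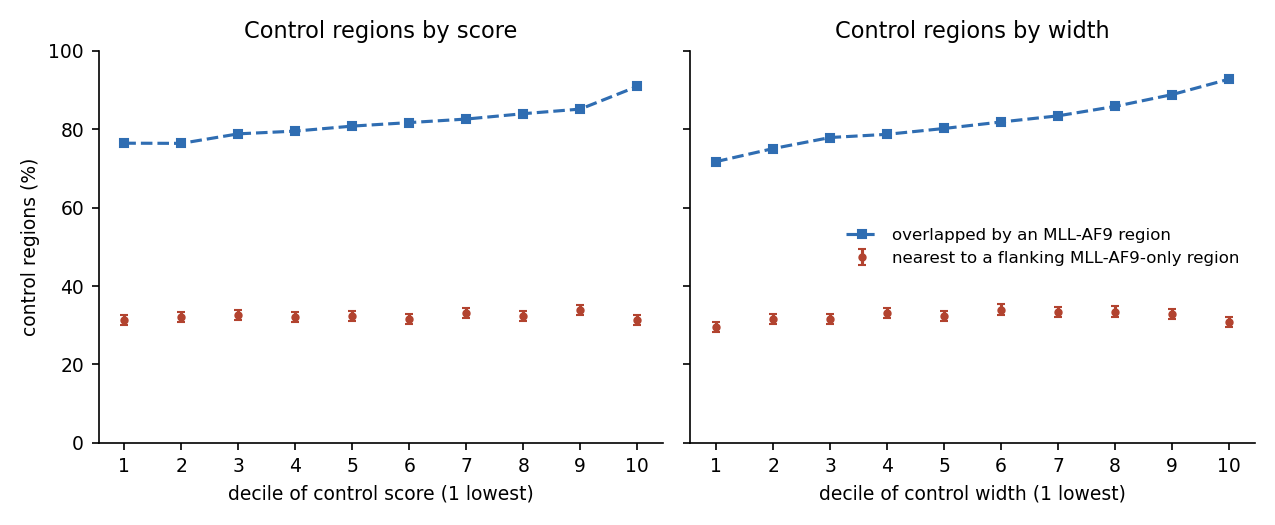
Percent of autosomal control regions that are the nearest control region of an MLL-AF9-only region within 1000 bp (red, bars are 95% Wilson intervals) or overlapped by an MLL-AF9 region (blue squares), by deciles of the control score (left) and control width (right). The red points stay between 29.5% and 34.0%, and the blue points climb to 90.9% and 92.8%.

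Nor did the size of a flanking region follow that of its control region. The Spearman correlation between their scores was 0.02 and between their widths 0.05, over 19898 pairs in which a control region can appear more than once. Flanking regions beside control regions in the lowest quartile of score, 69 to 188, had a median score of 210 (quartiles 143 and 277), and those beside control regions in the highest quartile, 397 to 2577, a median of 213 (quartiles 148 and 284). Their median gaps were 426 and 390 bp. The flanking region was narrower than its control region in 13673 pairs (68.7%) and wider in 6192.

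Most flanked control regions were also found again in the MLL-AF9 list, with the flanking region as an additional neighbour. Of the 16503 flanked control regions, 14373 (87.1%, interval 86.6 to 87.6) shared at least 1 base with another MLL-AF9 region. The share was 79.0% (interval 78.6 to 79.4) for control regions that were not the nearest to a flanking region. Among the 33117 control regions with no flanking region within 1000 bp, the share was 78.7% (interval 78.3 to 79.1). The rule uses the same 2 lists, so this difference was not tested. For these control regions the MLL-AF9 list holds both the overlapping and the flanking region, whose scores can be compared directly. The cases are 17383 flanking regions, so a control region can appear more than once. In 11735 of them (67.5%) the flanking region had the lower score, in 5599 (32.2%) the higher and in 49 an equal one. The 2 scores had a Spearman correlation of only 0.04. Over the whole MLL-AF9 list, too, overlapping regions had the higher median score, 262 beside 210 for flanking regions. In the 17383 cases, median scores were 211 for flanking and 280 for overlapping regions, and median widths 438 and 614 bp. The median ratio of flanking to overlapping score was 0.712, with quartiles of 0.423 and 1.18. Where several MLL-AF9 regions overlapped a control region, the one of the highest score was taken, which favours the overlapping side.

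In 9272 of the 17383 cases (53.3%) the overlapping MLL-AF9 region reached past the control edge towards the flanking region. No share for control edges without a flanking region is given for comparison. The median gap between the 2 MLL-AF9 regions was 404 bp, with quartiles of 172 and 692 bp, and it was at most 200 bp in 4988 cases (28.7%). When MLL-AF9 regions less than 200 bp apart were joined, 5844 flanking regions (29.4%) became part of a region that overlaps control, 2034 (10.2%) joined other MLL-AF9-only regions, and 12020 (60.4%) stood alone. The first and the last of these had like sizes, with median scores of 211 and 209 and median widths of 441 and 430 bp.

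A smaller class lay beside control regions that had no overlapping region in the MLL-AF9 list. These 2515 flanking regions (12.6%) neighboured 2130 control regions that no MLL-AF9 region touched. Their median width of 419 bp, score of 205 and gap of 402 bp were near the 438 bp, 211 and 415 bp of the other flanking regions. The control regions were smaller, with a median width of 500 bp and score of 236, compared with 591 bp and 269 for the flanked control regions that were overlapped. The 7055 control regions with neither an overlap nor a flanking region within 1000 bp had similar values, 505 bp and 240. Another MLL-AF9 region lay within 1000 bp of 1076 of the 2515 flanking regions (42.8%). Seen from the control list, 4170 of the 9404 autosomal control-only regions (44.3%) had an MLL-AF9 region within 1000 bp.

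Single flanking regions were the rule. Of the flanked control regions, 13437 (81.4%) had 1, 2753 had 2, 298 had 3, 14 had 4 and 1 had 5. Both sides were occupied at 2018 control regions (12.2%), whose median score of 269 was close to the 264 of those flanked on 1 side. Conversely, 2265 flanking regions (11.4%) lay between 2 control regions that were each within 1000 bp. They filled a median of 35.1% of the space between them, which had a median length of 1367 bp, and their median width and score, 437 bp and 212, were near those of the rest, 436 bp and 210. Flanked control regions had another control region within 1000 bp less often (28.9%) than control regions that were not the nearest to a flanking region (46.5%). The space taken up by close control neighbours moves with this difference by construction, and its part was not tested.

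The control region with 5 flanking regions was an ordinary one. It lay in mm9 at chr5:20777264-20777681, 418 bp wide with a score of 230, and an MLL-AF9 region of 675 bp and score 438 overlapped it. The 2 flanking regions before it were chr5:20775710-20776263 (score 347) and chr5:20776293-20776513 (score 92), the former exactly at the limit with a gap of 1000 bp. The 3 after it were chr5:20777877-20778237 (score 147), chr5:20778255-20778523 (score 143) and chr5:20778553-20778993 (score 138). Neighbours among the last 3 were separated by 17 and 29 bp.

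The 5 highest-scoring flanking regions were wide and lay beside control regions with scores from 184 to 637. First was chr13:56209831-56212086, with a width of 2256 bp and a score of 2048. Its control region, 442 bp wide with a score of 222, began 194 bp further on. An MLL-AF9 region of 2209 bp and score 871 that covered this control region was separated from the flanking region by only 3 bp. Second was chr5:3517656-3519836 (score 1874), which followed a control region of 843 bp and score 637 by 424 bp. The third was chr14:77102618-77104746 (score 1873), 706 bp after a control region of 481 bp and score 221 that no MLL-AF9 region overlapped. The next, chr4:117077256-117079617 (score 1725), had a gap of 837 bp to a control region of score 248, and chr8:13028829-13030971 (score 1674) had a gap of 983 bp to one of score 184. Among these 5, the control score stood above the control median of 264 once.

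By width, the order was different. The widest flanking region was chr13:112565785-112568562, at 2778 bp with a score of 1347 and a gap of 668 bp. It was followed by chr5:115975955-115978626, at 2672 bp with a score of 1546, and chr18:68393504-68396084, at 2581 bp with a score of 844. The chromosome 5 region lay between 2 control regions, with gaps of 800 bp before and 151 bp after it. The flanking region of highest score with a control region on both sides was chr13:55117324-55119377, 2054 bp wide with a score of 1668, at gaps of 703 and 424 bp. The third by score among regions between 2 control regions, chr16:31050642-31052072, had a score of 1265 and gaps of 219 and 202 bp.

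The flanking regions beside the 3 flanked control regions of highest score ranged from small to large. Control regions that were not flanked reached a higher score, 3609, than the flanked ones. The control region chr12:102243308-102247767, 4460 bp wide with a score of 2577, was overlapped by 4 MLL-AF9 regions, the best of them with a score of 1186. Its flanking region, chr12:102242407-102242902, was 496 bp wide with a score of 240 and a gap of 405 bp. The control region chr9:108007594-108010620 had a score of 2522 and was overlapped by an MLL-AF9 region of score 2458, and its flanking region chr9:108005636-108006597 was 962 bp wide with a score of 515 and a gap of 996 bp. The control region chr19:46691346-46693981, with a score of 2271, had the flanking region chr19:46694467-46694790, 324 bp wide with a score of 122.

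**Figure D5:**
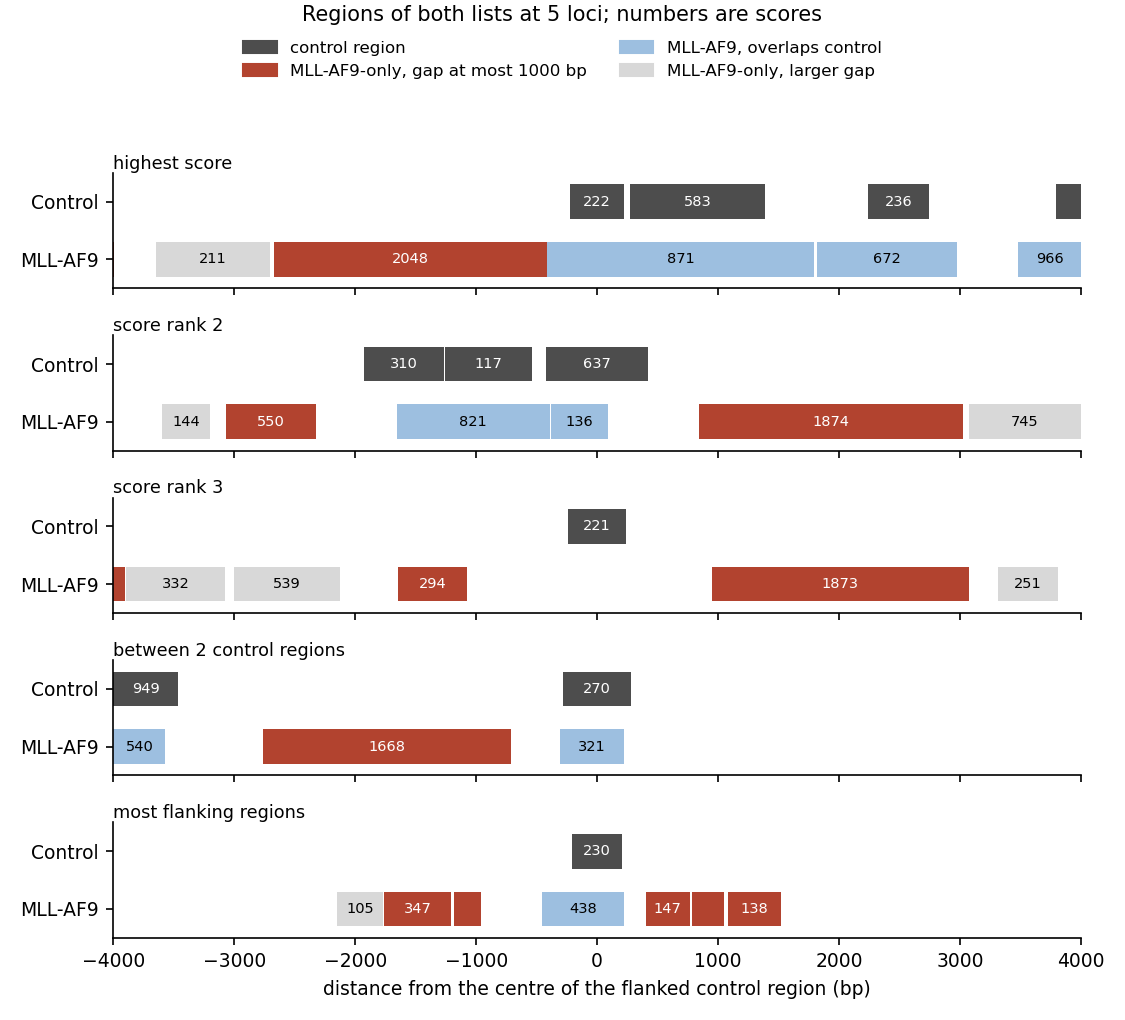
Regions of the control (upper track) and MLL-AF9 list (lower track) around 5 flanked control regions, in bp from the control region's centre, with the authors' score printed on the wider bars: beside the 3 flanking regions of highest score, beside the highest-scoring one between 2 control regions, and around the control region with 5 flanking regions. The flanking regions (red) with scores of 2048, 1874, 1873 and 1668 are wider than the control regions beside them.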

How the data were processed

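The members and their measures were chosen with earlier results of these data known. The deposited region lists give a position and a score per region. For build mm9, the tools named per the submitters' processing notes are MACS 1.4, Bowtie 0.17.2, CASAVA 1.8.2, Cufflinks 1.3.0 and TopHat 1.4.1. The sources used here do not give their roles and settings, the threshold for a region or the use of the input library. The labels' protocols describe 18 PCR cycles and single reads of 51 bp. Deposited RNA values, taken as FPKM, are pooled per group, with the authors' p-value and q-value.

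Positions were read as BED and are printed from 1. Regions within a list did not overlap. Equal gaps on both sides (3 regions) counted to the preceding control region. Chromosome X would have added 30 regions. Y could add 0, because the control list holds 0 regions there, beside 19 in the MLL-AF9 list. The nearest-region step was tested on simulated data. Named regions are the 5 of highest score, the 3 widest and 3 beside the flanked control regions of highest score. Also named are the 3 of highest score between 2 control regions, and those of the control region with the most. Some planned marker genes are not reported here. The planned link to expression was not run. The input library was not analysed here. Python 3.11.15, numpy 2.4.6, pandas 2.3.3, scipy 1.17.1 and matplotlib 3.10.9 were used.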

Additional observations from a re-analysis of the deposited data

How the results depend on the processing

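Each of 9 results was recomputed under 7 alternatives. Of the 63 values, 35 stayed within 1.5 times the count or within the 95% interval of the share or median, and 28 did not. No paired analysis was possible because each group has 1 library. With a maximum gap of 500 bp there were 11576 flanking regions (9.46% of MLL-AF9-only regions) beside 10730 control regions of median width 585 bp and score 268. With 2000 bp there were 32094 (26.2%), and the control width was 570 bp. With MLL-AF9 scores at or above the list median, 9618 regions (17.6%) met the same rule, with a median width of 531 bp and score of 284, 49.3% of them on the higher side. They lay beside 8798 control regions of 584 bp, of which 63.9% were overlapped. The dropped MLL-AF9 regions no longer counted as overlapping, and the higher flanking score follows from the filter. With control scores at or above the median, there were 14790 flanking regions (10.4%) beside 11516 control regions. The widths were 459 and 711 bp, the scores 217 and 400, and 89.3% of flanked control regions were overlapped. In that setting, MLL-AF9 regions that overlapped only dropped control regions counted as MLL-AF9-only. Their part in the flanking width and score was not tested, and the higher control score follows from the filter. With an overlap of at least 10% of the MLL-AF9 width required, the share was 16.6%. With MLL-AF9 regions under 200 bp apart merged, there were 13403 flanking regions (12.5%) beside 12209 control regions. Both counts were lower than in the main setting but within the limit of 1.5 times. The widths were 454 and 571 bp, the flanking score 216, and 82.9% of control regions were overlapped. Adding chromosome X left all 9 results within these limits. The overlapped share of all control regions was not recomputed under these alternatives. The read total of neither library is known, and the part of depth in a region's absence from the control list was not tested.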

Other observations

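Scores of flanking regions broke off sharply at one value. The commonest score was 96, held by 363 flanking regions, whereas 9 had a score of 97. In all, 2131 flanking regions (10.7%) had a score of at most 96, with a median width of 300 bp. The same break was present in the other MLL-AF9 regions: the 43603 that overlapped control had 382 regions at 96 and 6 at 97, with 4.38% at or below 96, and those more than 10000 bp from control had 962 and 25, with 11.3% at or below. In the control list the break lay at another value, with 482 autosomal regions at 98 and 5 at 99. Of the flanked control regions, 154 had a score of 98 and 1 a score of 99. The break was noticed after the values were seen, and its cause was not tested.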
